A study of Mus musculus with 8 samples.

Results

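Gene expression was compared between knock-out (KO) and wild-type (WT) mouse hearts at 10 weeks of age, the later of the study's time points. The members were the arrays whose titles name the 10-week hearts, 2 KO and 2 WT, that is 4 of the 8 arrays of the series. All mice were female. The KO mice carry a conditional gene deletion made with the MCK (muscle creatine kinase) driver, and the WT mice were littermates without the knock-out genotype. Each array holds the RNA of 1 mouse, so the error given with a value rests on the spread between mice. The 4 arrays of 4-week hearts, also 2 KO and 2 WT, shared in the estimate of that spread and served to ask whether a difference depended on age.

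The MCK driver is active in striated muscle, so heart and skeletal muscle lose the gene while fibroblasts, vessels, immune cells and other organs keep it. The adult heart draws most of its energy from mitochondrial oxidation of fatty acids, and its muscle cells are packed with respiratory chain proteins. When mitochondria of muscle fail, cells can turn on the integrated stress response, in which the transcription factor ATF4 induces genes of amino acid supply, tRNA charging and feedback control. A strained heart also returns to fetal isoforms of contractile proteins, secretes natriuretic peptides and lays down collagen matrix. RNA of a whole heart pools all of its cells, so fewer cells of a type and less RNA per cell cannot be told apart in any value that follows.

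Values are log2 of the deposited intensities, 1 probe set per gene, and differences are KO minus WT on that scale with the standard error (SE) of the fit. Higher and lower refer to genes whose Benjamini-Hochberg adjusted p in limma was under 0.05 over all 18193 genes, and the words rose and fell are used of those alone. The heart muscle genes themselves matched the label: the summed linear intensity of the 20 cardiomyocyte markers read 195600 and 215100 in KO and 204300 and 232500 in WT.

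Replicate 1 of the WT hearts stood apart. Principal components are the directions along which the arrays of both ages differ most. On component 2, with 24.3% of the variance, it read -43.3 and WT replicate 2 read -4.2. The KO hearts read -1.6 and 9.9 there, and the 4-week arrays 5.2 to 13.9. On component 1, with 51.9%, the WT hearts were alike at 8.6 and 10.0, and the KO hearts read -46.7 and -39.1. Which genes make up component 2 was not examined. The sum of 17 liver markers read 1669 and 1092 in KO and 7172 and 1618 in WT, and that of 10 kidney markers 404 and 430 in KO and 1338 and 532 in WT, so that 1 WT heart carried several times the liver and kidney signal of the others. Apoa1, the main protein of high-density lipoprotein and a liver product, read 5.04 and 6.09 in KO and 9.56 and 6.14 in WT. No liver marker was called, although their median difference was -1.33, and the lower members numbered 6 without WT replicate 2. Of the kidney markers 1 was lower, and the lower members numbered 0 without KO replicate 1 or 2 and 3 without WT replicate 2. KO replicate 1 stood apart in another way: the sum of 15 neutrophil and mast cell markers read 4160 and 767 in KO and 958 and 758 in WT, and S100a8, a calcium-binding protein of neutrophils, read 10.94 and 5.71 in KO and 7.15 and 6.24 in WT. No neutrophil or mast cell marker was called, and the higher members numbered 3 without KO replicate 2 and the lower members numbered 1 without KO replicate 1. Atrial markers summed to 24850 and 24490 in KO and 17630 and 26050 in WT. This sum includes the bright Nppa, which was itself higher in KO, at 14.23 and 14.29 against 12.99 and 13.44 in WT. The median difference of the 14 atrial markers was -0.44 and 4 were lower, so the sum does not describe most of them. The part of these signals in the results was not tested, and counts without single arrays are given where they differ by over 1.5 times.

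**Figure D1:**
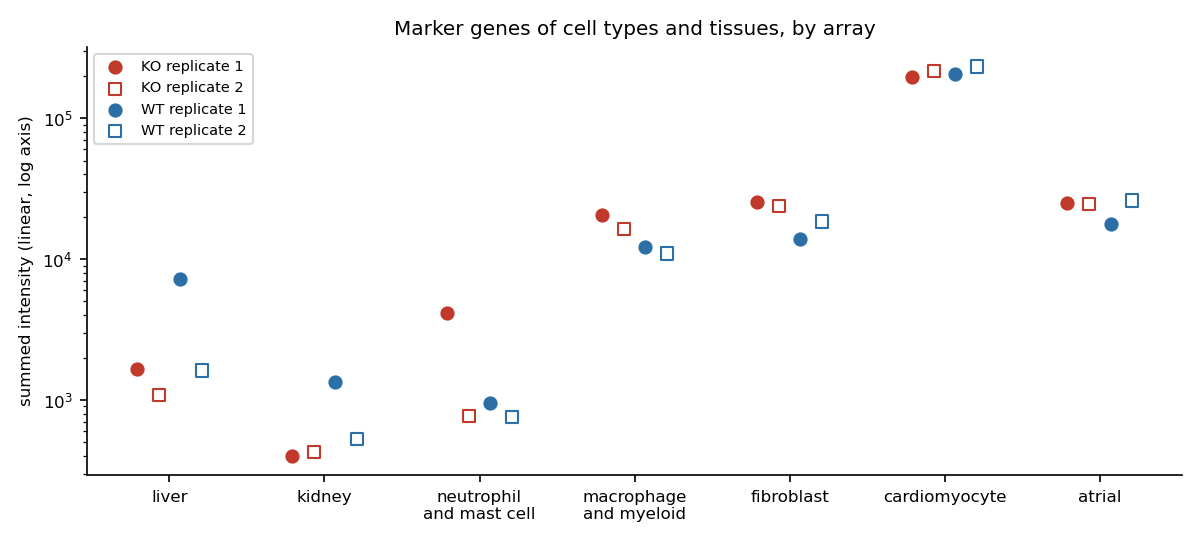
Summed linear intensity (log axis) of marker genes of 7 tissues or cell types on the 4 arrays of 10-week hearts, with circles for replicate 1 and squares for replicate 2. Liver and kidney sums were highest in WT replicate 1, at 7172 and 1338, the neutrophil sum in KO replicate 1, at 4160, and both KO arrays lay above both WT arrays for macrophage and fibroblast markers.

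Across the genome more genes fell than rose in the KO hearts. Of the 18193 genes, 945 were higher, or 5.19%, and 1254 lower, or 6.89%. Among them 321 rose and 450 fell at least 2-fold, and 52 rose and 39 fell at least 4-fold. The median difference was 0.0, with quartiles of -0.16 and 0.16. RMA, run before deposit, evens out the distributions of the arrays. A median near 0 thus does not test for a shift of all genes. The lowest and highest 1% of the genes lay beyond -1.33 and 1.3. Both KO arrays lay above both WT arrays for 4303 of the 18193 genes and below both for 4274, so a separation of the pairs is common by itself. Every list count in the text is to be read against the shares of 5.19% higher and 6.89% lower. Only 203 of the rises and 137 of the falls had a mean level below the median gene. The shares among brighter genes were therefore larger, and lists of bright genes can exceed 5.19% and 6.89% for that reason alone. The lists were also chosen with earlier results of these data known, so a count above these shares is a description and not a test. With 1 array left out, 352 of the rises and 474 of the falls kept their call in all 4 such fits. The totals were 559 higher and 595 lower without KO replicate 1, 525 and 799 without KO replicate 2, 718 and 1280 without WT replicate 1, and 1674 and 1570 without WT replicate 2, the last with more rises than falls. A fit of the 10-week arrays alone, with fewer degrees of freedom, gave 400 higher and 559 lower. It also took no estimate of the spread from the 4-week arrays. The standard deviation of replicate 1 minus replicate 2 over all genes was 0.265 in KO and 0.353 in WT at 10 weeks. At 4 weeks it was 0.258 and 0.183, so the shared error may be too small for differences at 10 weeks.

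The 20 largest rises among the genes that kept their call in all 4 of those fits were led by Nmrk2, which makes a precursor of NAD from nicotinamide riboside and is a gene of muscle. It read 12.86 and 13.09 in KO and 6.97 and 7.84 in WT, a rise of 5.57 ± 0.33 or 47.6-fold (adjusted p = 2.76e-05). Serpina3n, a secreted protease inhibitor of the acute phase, read 11.91 and 10.73 in KO and 7.33 and 7.18 in WT, so that the KO hearts differed from each other by more than the WT hearts did but lay far above them (16.7-fold). Asns, which makes asparagine, read 10.25 and 10.60 in KO and 6.32 and 6.72 in WT, 15-fold up.

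Matrix genes made up much of the remainder of this group. Timp1, an inhibitor of metalloproteinases, read 11.46 and 10.15 in KO and 7.13 and 7.0 in WT, a rise of 13.4-fold with the wider spread in KO. Postn, the matrix protein periostin of activated fibroblasts, read 12.50 and 12.70 in KO and 8.67 and 9.19 in WT (12.7-fold). Col8a1, a short-chain collagen, read 9.78 and 10.13 in KO and 5.97 and 6.78 in WT (12-fold). For each of these genes the lower KO value lay above the higher WT value, as the rule for leading genes requires. Cilp, a matrix protein first known from cartilage, read 10.37 and 10.37 in KO and 6.68 and 6.9 in WT, with both KO hearts at the same level (12-fold). Sfrp2, a secreted modulator of Wnt signalling, read 7.2 and 7.22 in KO and 4.23 and 4.05 in WT (8.36-fold).

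Serine and proline synthesis, macrophage and contractile genes completed the first 12. Psat1, the aminotransferase of serine synthesis, read 7.63 and 8.13 in KO and 4.15 and 4.71 in WT (11-fold). Lgals3, the lectin galectin-3 of macrophages and injured tissue, read 11.15 and 11.01 in KO and 7.69 and 7.86 in WT (9.87-fold). Aldh18a1, which starts proline synthesis, read 8.23 and 8.6 in KO and 4.62 and 5.91 in WT, with the WT hearts further apart than the KO hearts (8.9-fold on this probe set, and 1.1 to 1.48 in log2 on its other probe sets). Myh7, the slow myosin heavy chain that the fetal ventricle uses, read 11.15 and 11.31 in KO and 8.11 and 8.23 in WT. Its rise of 3.06 ± 0.12 had 1 of the smaller errors of the group (adjusted p = 1.27e-05).

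The other leading rises lay between 2.58 and 2.98 in log2. They were Fam122b (2.98 ± 0.16), the matrix-associated signal protein Ccn5 (2.9 ± 0.19), the collagen cross-linker Lox (2.89 ± 0.22) and Nox4, an oxidase that makes hydrogen peroxide (2.7 ± 0.16). They also included the growth factor Tgfb2 (2.64 ± 0.23), Itgbl1 (2.61 ± 0.13), the stress-response factor Ddit3 (2.59 ± 0.27) and Lcn2, which binds siderophores (2.58 ± 0.15). Not all probe sets of these genes gave the same size: a further probe set of Nox4 gave 1.06 and one of Ddit3 gave 0.44, while the others of Lox gave 0.35 to 2.01 and those of Tgfb2 0.79 to 2.44.

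The 20 largest falls held several genes of striated muscle. Ift81, a component of the transport machinery of cilia, read 6.25 and 6.9 in KO and 10.85 and 10.00 in WT, a fall of 3.85 ± 0.34 or 14.5-fold (adjusted p = 0.00022), with -3.38 and 0.06 on its other probe sets. Gpr22, an orphan receptor of the heart, read 4.93 and 4.57 in KO and 8.1 and 8.07 in WT (10.1-fold lower). Rpl3l, the ribosomal protein that replaces Rpl3 in mature striated muscle, read 7.17 and 7.3 in KO and 10.75 and 10.34 in WT (9.91-fold lower). These genes were bright in both WT hearts, and the WT values of Gpr22 were almost equal.

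Lrtm1, which encodes a leucine-rich repeat membrane protein, read 5.95 and 5.98 in KO and 8.77 and 9.45 in WT (8.83-fold lower). Ces1d, a carboxylesterase that splits stored fat, read 6.68 and 6.96 in KO and 10.03 and 9.76 in WT (8.43-fold lower). Gstk1, the glutathione transferase of mitochondria and peroxisomes, read 7.02 and 7.36 in KO and 10.28 and 9.97 in WT (7.65-fold lower). For each of these genes the gap between the genotypes was several times the gap within either pair, the widest gap within a pair being that of Lrtm1 in WT. Asb5, an adaptor of a ubiquitin ligase in muscle, read 5.78 and 5.72 in KO and 8.43 and 8.47 in WT (6.51-fold lower). Yipf7, of a family of membrane proteins of the Golgi, read 7.92 and 8.16 in KO and 10.70 and 10.75 in WT (6.43-fold lower).

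In the remaining members of the first 12, WT hearts differed more or probe sets disagreed. Gbp6, an interferon-induced GTPase, read 5.89 and 6.1 in KO and 9.25 and 8.13 in WT, with WT replicate 1 the highest (6.49-fold lower). Cmss1 read 6.29 and 6.74 in KO and 9.83 and 9.37 in WT, but its other probe sets gave -0.1 and -0.01. Pkd2l2, a channel protein of the polycystin family, read 3.98 and 3.82 in KO and 6.67 and 6.79 in WT, and its other probe set gave -0.01. The chromatin remodeller Chd6 read 5.2 and 5.11 in KO and 7.43 and 8.23 in WT, and its other probe set gave -0.03. So the falls of the last 3 genes were seen on the brightest probe set alone. The level and target of the other probe sets were not examined.

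The other leading falls lay between -2.3 and -2.62. Asb15 (-2.62 ± 0.3) and Asb14 (-2.34 ± 0.22) belong to the family of Asb5. The tubulin-modifying gene Ttll1 (-2.53 ± 0.26) and the methyltransferase Etfbkmt (-2.45 ± 0.13) had further probe sets near 0, at -0.07 and 0.03 and at -0.17. Rgs2, which damps signalling through Gq proteins (-2.36 ± 0.2), Rtn2, a reticulon of the endoplasmic reticulum (-2.35 ± 0.23), Immp1l, a peptidase of the mitochondrial inner membrane (-2.33 ± 0.29), and Hnmt, which inactivates histamine (-2.3 ± 0.25), completed the group. The other probe sets of Rgs2 gave -3.05 to -0.06.

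**Figure D2:**
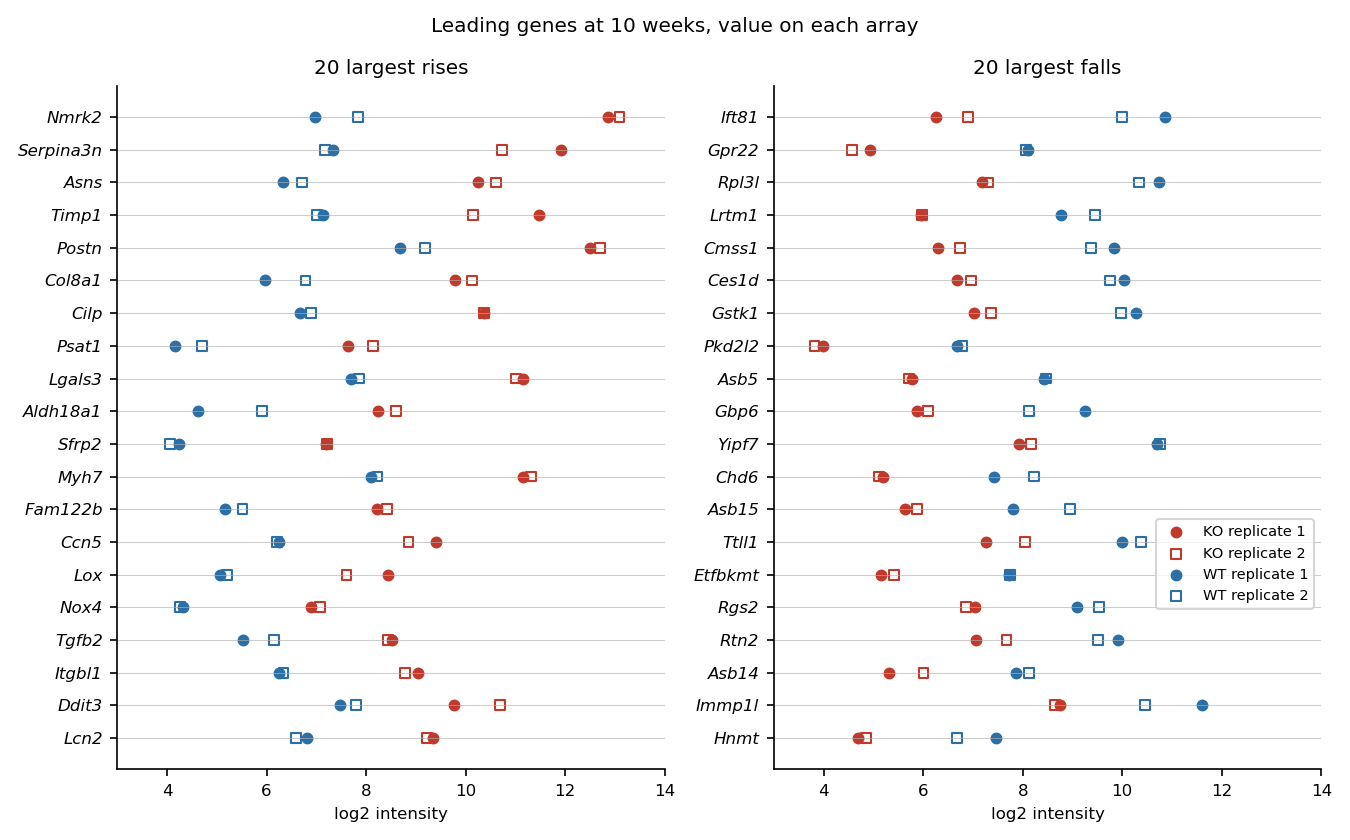
Log2 intensity of the 20 genes with the largest rise (left) and the 20 with the largest fall (right) on each of the 4 arrays of 10-week hearts, red for KO and blue for WT, circles for replicate 1 and squares for replicate 2. In every row the KO pair lies clear of the WT pair, as the rule for leading genes requires. The rows run from Nmrk2 at 12.86 and 13.09 against 6.97 and 7.84 to Hnmt at 4.69 and 4.84 against 7.46 and 6.69.

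Collagens and other matrix genes were among the rises. Of 24 collagen genes 9 were higher and 0 lower, against 5.19% and 6.89% of all genes, with a median difference of 0.39. Col3a1, of the fibrillar collagen of soft tissue, read 11.50 and 11.49 in KO and 9.35 and 9.66 in WT, a rise of 1.99 ± 0.17 (3.99-fold, adjusted p = 0.000208). Col5a2, which helps to start fibrils, read 9.98 and 9.91 in KO and 7.45 and 7.9 in WT (4.81-fold). For both genes the KO hearts were nearly equal. Col1a1 and Col1a2, the chains of the most abundant fibrillar collagen, rose by 2.05 ± 0.21 and 1.25 ± 0.15, and Col14a1, which sits on fibrils, by 1.31 ± 0.18.

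Of 43 matricellular and matrix proteins 23 were higher and 1 lower, with a median of 0.74, and 20 of the rises kept their call with any single array left out. Besides Postn, Cilp and Ccn5, Ccn2, the connective tissue growth factor, read 11.65 and 11.91 in KO and 9.28 and 9.42 in WT (5.39-fold, adjusted p = 2.61e-05). Comp, a cartilage matrix protein, read 8.37 and 7.7 in KO and 5.61 and 5.88 in WT (4.88-fold), and Thbs4, a thrombospondin of strained muscle, rose by 2.15 ± 0.17. Both KO hearts lay above both WT hearts for these genes, by more than the gap within either pair. The separation without regard to its size held for 4303 of all 18193 genes. In fits without 1 of the arrays, the lower members numbered 0 without KO replicate 1 or 2 and 0 without WT replicate 2.

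Among 37 enzymes that cross-link or cut matrix and their inhibitors 12 were higher and 4 lower (median 0.27). The lysyl oxidases, which cross-link collagen, rose together: Lox read 8.43 and 7.61 in KO and 5.06 and 5.2 in WT, Loxl3 rose by 1.31 ± 0.12 and Loxl1 by 1.46 ± 0.26, the last not called without KO replicate 2 (1.37). Inhibitors of metalloproteinases went both ways, Timp1 up and Timp4, the heart's own member of the family, down by 1.29 ± 0.2. When single arrays were left out, the lower members numbered 2 and 1 without KO replicates 1 and 2.

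The TGF-beta system, a main driver of matrix synthesis, had 7 of 30 members higher and 2 lower (median 0.19). The ligand Tgfb2 read 8.51 and 8.44 in KO and 5.53 and 6.15 in WT (6.22-fold, adjusted p = 0.00022) and Ltbp2, of the family of proteins that store the ligands, 6.8 and 6.73 in KO and 4.8 and 4.78 in WT (3.93-fold). Tgfb3 rose by 0.8 ± 0.15 and the inhibitory Smad6 by 0.84 ± 0.16, the first not called without KO replicate 2 (0.72) and the second not without KO replicate 2 (0.76). On the receiving side the pseudoreceptor Bambi and the co-receptor Tgfbr3 fell by 1.27 ± 0.17 and 1.1 ± 0.17. The count rests on all arrays, as the higher members numbered 4 and 3 without KO replicates 1 and 2 and 4 without WT replicate 1.

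Fibroblast markers moved with the matrix. Of 18 markers 10 were higher and 1 lower (median 0.74), and their summed intensity read 25400 and 23750 in KO and 13900 and 18490 in WT. Several of them are matrix genes counted above. Cthrc1, a secreted protein of activated fibroblasts, read 7.15 and 6.77 in KO and 4.95 and 4.72 in WT (4.36-fold, adjusted p = 7.51e-05). Meox1, a transcription factor of the same state, rose by 1.35 ± 0.18 and fibronectin, Fn1, by 1.58 ± 0.3. The part of fibroblast number in the matrix values was not tested. As arrays were left out in turn, the lower members numbered 0 without KO replicate 1 or 2 and 0 without WT replicate 2.

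Stress response genes were among the rises. Of 22 regulators and feedback genes of the integrated stress response 11 were higher and 1 lower (median 0.78), and 10 of the rises kept their call with any 1 array left out. Ddit3, which encodes CHOP, read 9.76 and 10.70 in KO and 7.48 and 7.79 in WT and Chac1, which degrades glutathione, 8.49 and 9.36 in KO and 6.46 and 6.42 in WT. Atf4 itself, whose protein is made when general translation is slowed, rose by 1.89 ± 0.19 in message (3.7-fold, adjusted p = 0.000386). The other probe sets of Atf4 gave 0.07 and 2.27. Feedback genes rose as well, with Trib3, a pseudokinase that binds ATF4, at 2.03 ± 0.22 and Ppp1r15a, which directs the phosphatase of eIF2 alpha, at 1.91 ± 0.18. Nupr1, a small chromatin protein of stressed cells, rose by 1.96 ± 0.17. KO replicate 2 was the higher KO heart for Ddit3, Chac1, Trib3, Ppp1r15a and Atf4, whereas Nupr1 was alike in both (9.51 and 9.44). The lower member was Herpud1, of protein degradation at the endoplasmic reticulum (-1.42 ± 0.22). By array left out, the lower members numbered 2 without WT replicate 1.

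The promoters of some of these genes carry the element to which ATF4 and its partners bind. In mouse RefSeq windows of 300 bases (250 before to 50 after a gene's start, GRCm38.p6), the letters TGATGNAAN on either strand were found for 465 of 14452 measured genes with a window, or 3.22%. The share was 38 of 747 genes higher in KO (5.09%) and 31 of 1023 lower (3.03%). By list it was 7 of 21 stress response genes, 2 of 19 amino acid synthesis genes, 3 of 14 amino acid transporters and 5 of 12 cytosolic tRNA synthetases with a window. ATF4 is known to induce genes of these kinds. A share above that of all genes thus describes the lists and tests nothing in these data. Sequences are given for the members of the first 2 of these lists that rose and hold a match. They read 5′ to 3′ on the gene's strand, with the match in capitals. Both the rise and the match were conditions of the choice, so the recurrence of the letters among these genes follows from it. A shared cause of the rises was not tested.
Asns, chr6:7693210-7693282, match from 23 bases before the start: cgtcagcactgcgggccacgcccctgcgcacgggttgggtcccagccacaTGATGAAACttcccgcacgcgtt
Chac1, chr2:119350998-119351106, match on the opposite strand from 194 bases before the start: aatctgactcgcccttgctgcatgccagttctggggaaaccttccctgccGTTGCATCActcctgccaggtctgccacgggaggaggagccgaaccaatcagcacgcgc
Trib3, chr2:152344029-152344057, match on the opposite strand just after the start: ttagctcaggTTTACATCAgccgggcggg
Nupr1, chr7:126625523-126625631, match on the opposite strand from 111 bases before the start: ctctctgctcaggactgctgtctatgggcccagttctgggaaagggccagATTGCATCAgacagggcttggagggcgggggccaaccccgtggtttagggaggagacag
Atf3, chr1:191183386-191183494, match on the opposite strand from 111 bases before the start: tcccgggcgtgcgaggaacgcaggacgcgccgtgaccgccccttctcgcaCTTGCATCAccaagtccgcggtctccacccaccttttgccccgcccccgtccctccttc
These genes rose by 3.91, 2.49, 2.03, 1.96 and 1.75 in log2, in that order. The TGATG core reads forward in Asns and as CATCA in the other 4. The synthetases with a match were Aars, Gars, Iars, Tars and Yars, all higher in KO, as were 13 of all 19 measured synthetases. Herpud1, which fell, and Jdp2 and Vldlr, which were not called, hold the letters too. So do Got1 of the amino acid synthesis genes and the transporters Slc1a4, Slc7a11 and Slc7a7, none of them called. Of the called transporters with a window, 0 of 3 held a match. A second motif, TNAAGGTCA, to which estrogen-related receptors bind, was searched in the same way with a view to the respiratory genes. It was found for 174 of 14452 measured genes (1.2%), 4 of 747 higher and 5 of 1023 lower. Among measured members with a window, 1 of 30 complex I genes and 2 of 32 genes of the other complexes held it. For mitochondrial ribosomal genes it was 0 of 67 and for fatty acid genes 1 of 39. Among called members the counts were 0 of 24, 0 of 17, 0 of 38 and 0 of 15, in the same order. A match describes the letters of a window and not binding, and no match says only that these letters are not in that window. Sequence outside the windows was not searched.

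Enzymes that make amino acids and one-carbon units had 10 of 22 members higher and 0 lower (median 0.37). Asns and Psat1, given above with their values, had the largest rises. In the mitochondrial folate pathway Mthfd2 rose by 2.46 ± 0.21, Aldh1l2 by 1.38 ± 0.22 and Mthfd1l by 1.12 ± 0.13. Here the lower members numbered 1 without WT replicate 2. Of 21 amino acid transporters 7 were higher and 0 lower (median 0.36). Slc7a5, the light chain of the carrier of large neutral amino acids, read 7.69 and 8.48 in KO and 6.48 and 6.37 in WT (3.16-fold) and its heavy chain Slc3a2 8.76 and 9.24 in KO and 7.29 and 7.7 in WT (2.84-fold), so both chains of the carrier rose, with KO replicate 2 highest. The cationic carrier Slc7a3 and the taurine carrier Slc6a6 rose by 1.06 ± 0.16 and 0.79 ± 0.14. With 1 array left out, the higher members numbered 4 without KO replicate 2 and the lower members numbered 1 without KO replicate 2 and 1 without WT replicate 1.

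Cytosolic and mitochondrial tRNA synthetases charge tRNAs with amino acids. Of 19 cytosolic enzymes 13 were higher and 1 lower (median 0.95). Gars, for glycine, read 10.10 and 10.43 in KO and 8.34 and 8.44 in WT (3.67-fold, adjusted p = 8.85e-05) and Eprs, for glutamate and proline, 9.78 and 10.39 in KO and 8.0 and 8.8 in WT. The other probe sets of Eprs gave 0.3 to 2.07. Iars and Aars, for isoleucine and alanine, rose by 1.32 ± 0.17 and 1.33 ± 0.19, and the lower members numbered 0 without KO replicate 1 and 0 without WT replicate 1. Of 16 mitochondrial enzymes 0 were higher and 2 lower (median -0.03), with Cars2, for cysteine, falling by 1.31 ± 0.12. The other probe sets of Cars2 gave -1.86 and 0.05. In fits without 1 of the arrays, the lower members numbered 1 without KO replicate 1. The difference between the 2 lists was not tested.

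Protein-folding genes of the secretory pathway and of mitochondria gave no common direction. Of 24 genes of the first list 2 were higher and 3 lower (median 0.06), with the oxidase Ero1a up by 1.1 ± 0.19 and Herpud1 down. The shares were 8.33% and 12.5%, against 5.19% and 6.89% of all genes. When single arrays were left out, the higher members numbered 1 without KO replicate 2 and 4 without WT replicate 2 and the lower members numbered 1 without KO replicate 2. Of 20 mitochondrial chaperones and proteases 2 were higher and 5 lower (median -0.09). Grpel2, a co-chaperone of protein import, read 8.18 and 8.46 in KO and 6.93 and 6.74 in WT (2.8-fold) and the matrix protease Lonp1 rose by 1.15 ± 0.19, while Immp1l read 8.75 and 8.65 in KO and 11.60 and 10.45 in WT, highest in WT replicate 1. Here the higher members numbered 5 without WT replicate 2 and the lower members numbered 1 without KO replicate 1.

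**Figure D3:**
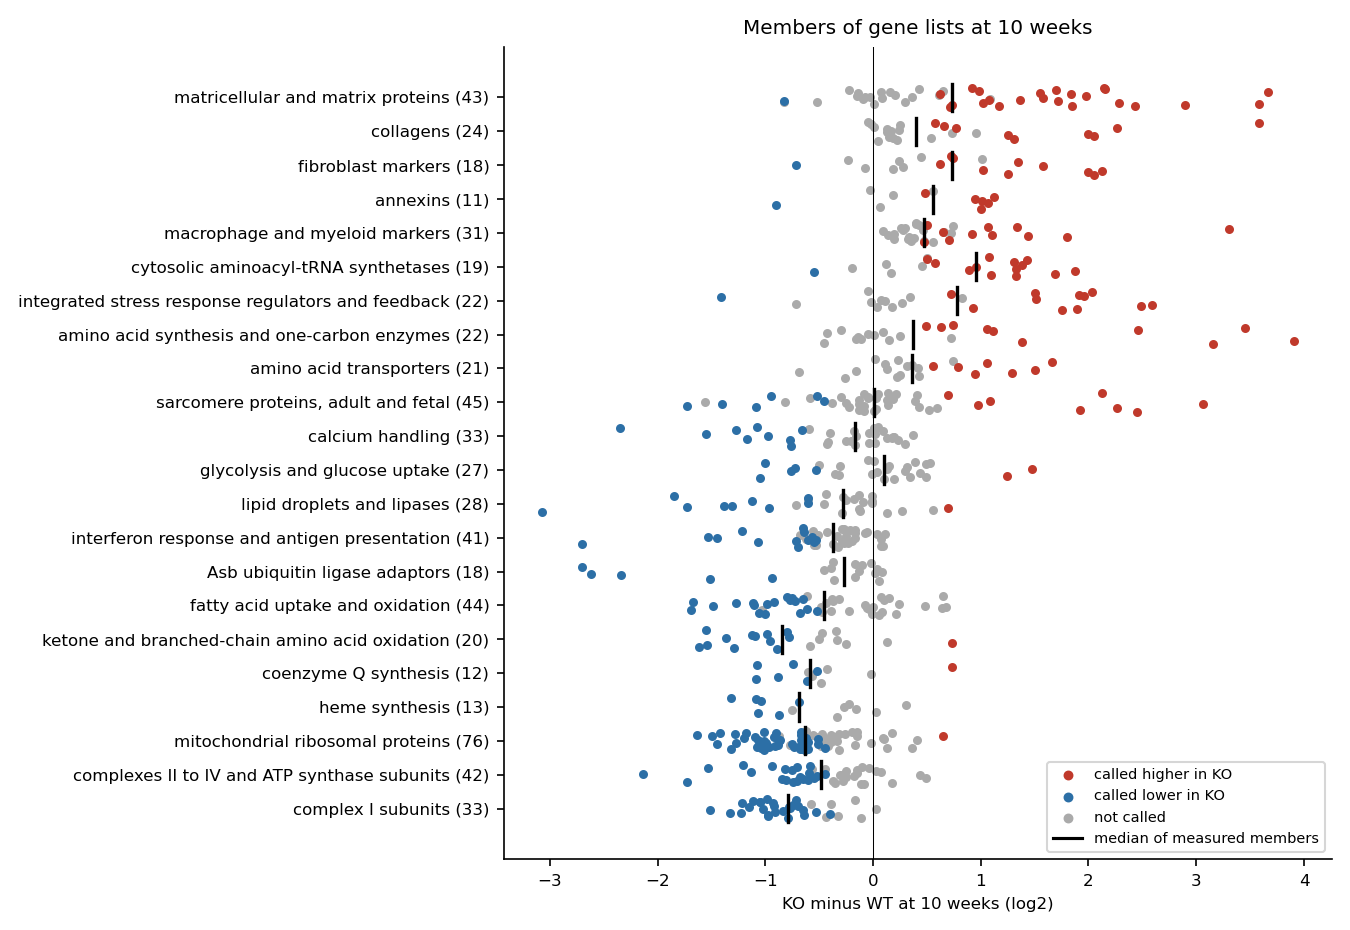
KO minus WT difference at 10 weeks (log2) of each measured member of 22 gene lists, with the number measured in brackets; red and blue points are members called higher and lower, grey points were not called, and the black bar is the median. Matrix, macrophage and amino acid lists lie to the right, with a median of 0.95 for the cytosolic tRNA synthetases, and respiratory chain lists to the left, with a median of -0.79 for complex I.

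Some hormones and contractile proteins of the strained heart rose. Of 16 cardiac hormones and secreted factors 5 were higher and 1 lower (median 0.2). Fstl1, a secreted glycoprotein of injured heart, read 10.88 and 11.01 in KO and 8.53 and 9.44 in WT (3.91-fold) and Nppb, the B-type natriuretic peptide, 13.81 and 13.64 in KO and 11.997 and 12.16 in WT (3.13-fold). Edn1, the vasoconstrictor endothelin, rose by 1.38 ± 0.17 and Fgf6 by 1.08 ± 0.16. Nppa, the A-type peptide, rose by 1.04 ± 0.24 and was not called without KO replicate 1 (1.07), without KO replicate 2 (1.01) and without WT replicate 1 (0.82). As arrays were left out in turn, the lower members numbered 0 without WT replicate 2.

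Sarcomere genes split. Of 45 contractile and related proteins 8 were higher and 6 lower, with a median of 0.01. Acta1, the skeletal actin that the fetal heart also uses, read 12.81 and 13.48 in KO and 10.51 and 10.88 in WT (5.48-fold, adjusted p = 0.00025), next to the rise of Myh7 given above. Fhl1, a stretch-sensing protein, rose by 2.27 ± 0.25 and Ankrd1, a titin-binding protein induced by load, by 1.92 ± 0.3. Another probe set of Fhl1 gave 0.55. Mybpc2, the fast skeletal form of myosin-binding protein C, fell by 1.73 ± 0.15, whereas the cardiac form Mybpc3 rose by 0.98 ± 0.18 and was not called without KO replicate 2 (0.89). The counts depended on the arrays: the higher members numbered 5 without KO replicate 2 and the lower members numbered 3 without KO replicate 1.

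Of 21 cardiac transcription factors 2 were higher and 2 lower, or 9.52% each way against 5.19% and 6.89% of all genes (median 0.0). Here the higher members numbered 0 and 1 without KO replicates 1 and 2 and 1 without WT replicate 1. Hopx, a homeodomain protein that binds no DNA itself, read 10.27 and 10.48 in KO and 12.45 and 12.47 in WT (4.24-fold lower, adjusted p = 3.4e-05). Hand2 read 7.4 and 7.26 in KO and 8.37 and 8.33 in WT, a fall of 1.02 ± 0.13, but its other probe sets gave -0.29 and -0.05. Tbx20 and Gata4 rose by 1.11 ± 0.22 and 1.0 ± 0.26, and neither kept its call, Tbx20 being lost without KO replicate 1 (0.96) and Gata4 without KO replicate 1 (1.15), without KO replicate 2 (0.85) and without WT replicate 1 (0.52).

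Calcium-handling genes fell where they changed. Of 33 members 0 were higher and 9 lower (median -0.17). Hrc, a calcium-binding protein of the sarcoplasmic reticulum, read 10.10 and 10.85 in KO and 11.73 and 12.31 in WT (2.92-fold lower, adjusted p = 0.00375). Cacnb2, a subunit of the calcium channel, and Trdn, which ties the release channel to its store, fell by 1.17 ± 0.16 and 1.07 ± 0.18. The release channel itself, Ryr2, read 8.56 and 8.7 in KO and 9.47 and 10.33 in WT, and its call was lost without KO replicate 1 (-1.2). Sln, a regulator of the calcium pump and an atrial gene in the adult mouse, read 8.95 and 8.74 in KO and 10.89 and 11.51 in WT and was not called without KO replicate 1 (-2.46) and without KO replicate 2 (-2.25). Another probe set gave -0.2 for Sln and -0.07 for Ryr2, and the others of Trdn gave -1.12 to 0.3. By array left out, the higher members numbered 1 without WT replicate 2 and the lower members numbered 4 without KO replicate 1.

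Of 33 channel and gap junction genes 3 were higher and 6 lower (median -0.19). That is 9.09% and 18.2%, against 5.19% and 6.89% of all genes. Kcna5, of the ultrarapid repolarising current, read 5.55 and 6.1 in KO and 7.84 and 8.02 in WT (4.31-fold lower, adjusted p = 0.000263). Kcnip2, a subunit of the transient outward channel, read 7.62 and 8.0 in KO and 9.21 and 9.7 in WT (3.14-fold lower), and Abcc9, the sulfonylurea receptor of the ATP-gated channel, fell by 1.59 ± 0.22. All 3 were lower in both KO hearts than in either WT heart, as were 4274 of all 18193 genes, and KO replicate 1 was the lowest for all 3. With 1 array left out, the higher members numbered 1 without KO replicate 1 and 1 without WT replicate 1 and the lower members numbered 3 without KO replicate 1.

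Of 26 receptors and signal proteins of the heart 1 was higher and 6 lower (median -0.07). Gpr22 and Rgs2 had the largest falls, with Rgs2 at 7.05 and 6.86 in KO and 9.1 and 9.53 in WT. Ednrb, an endothelin receptor, rose by 1.32 ± 0.21, and Lifr, the receptor of leukaemia inhibitory factor, and the purine receptor P2ry1 fell by 1.17 ± 0.18 and 0.94 ± 0.15. Other probe sets of Lifr gave -0.23 and 0.08. In fits without 1 of the arrays, the higher members numbered 3 without WT replicate 2 and the lower members numbered 10 without WT replicate 1.

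Respiratory chain genes were lower in the KO hearts. Of 33 complex I subunits 0 were higher and 26 lower (median -0.79), and 19 falls kept their call with any single array left out. Ndufb2 read 10.87 and 10.97 in KO and 12.84 and 12.02 in WT and Ndufa7 11.31 and 10.85 in KO and 12.61 and 12.20 in WT, so that WT replicate 1 was the highest array for both. Ndufa8, with WT values closer together, read 11.29 and 11.02 in KO and 12.45 and 12.31 in WT (2.34-fold lower, adjusted p = 0.000616). Without WT replicate 1 the lower members were still 26. Of 13 assembly factors of complex I 8 were lower and 0 higher (median -0.84), with Ndufaf5 at 6.67 and 6.81 in KO and 8.01 and 7.5 in WT and Ecsit at 8.15 and 8.27 in KO and 9.33 and 8.98 in WT, and the lower members numbered 4 without KO replicate 1.

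Of 42 subunits of complexes II to IV and ATP synthase 21 were lower and 0 higher (median -0.48). Cox7a1, the muscle isoform of a complex IV subunit, read 10.63 and 10.82 in KO and 12.98 and 12.73 in WT (4.39-fold lower, adjusted p = 3.4e-05). Cox8b, another muscle isoform, fell by 1.14 ± 0.15. Atp5e, a small subunit of ATP synthase, read 10.98 and 10.62 in KO and 12.90 and 12.15 in WT and Uqcr11, of complex III, fell by 1.53 ± 0.17. When single arrays were left out, the higher members numbered 1 without WT replicate 1 or 2 and the lower members numbered 13 without KO replicate 1.

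Coenzyme Q, the carrier between the complexes, had 6 of 12 synthesis genes lower and 1 higher (median -0.59). Coq2, which joins the ring to its tail, read 7.81 and 8.23 in KO and 9.03 and 9.19 in WT and Coq9 9.79 and 10.23 in KO and 11.11 and 11.06 in WT, and Coq8b, a kinase-like protein of the pathway, was the one that rose (0.74 ± 0.13). Another probe set of Coq9 gave 0.05. Here the lower members numbered 2 without KO replicate 1. Of 33 genes of mitochondrial fusion, fission and import 10 were lower and 0 higher (median -0.32). Apoo, of the complex that shapes cristae, fell by 0.83 ± 0.13 and kept its call with any array left out. The import genes Tomm7 and Timm8b read 8.95 and 8.81 in KO and 10.58 and 9.72 in WT and 10.03 and 9.75 in KO and 11.59 and 10.73 in WT, both highest in WT replicate 1. Tomm7 was not called without KO replicate 2 (-1.2), nor Timm8b without KO replicate 2 (-1.13), and the lower members numbered 5 and 6 without KO replicates 1 and 2.

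Of 76 mitochondrial ribosomal proteins 43 were lower and 1 higher (median -0.63). Their summed intensity read 38800 and 41180 in KO and 72370 and 57400 in WT, so the KO hearts lay below both WT hearts and WT replicate 1 was the highest. Mrps21 read 8.63 and 8.84 in KO and 10.49 and 9.96 in WT and Mrpl36 fell by 1.45 ± 0.22, and another probe set of Mrps21 gave -0.07. The largest fall, that of Mrps24 at 9.24 and 8.96 in KO and 11.27 and 10.21 in WT, was not called without KO replicate 2 (-1.5). Only 16 of the falls kept their call with any array left out, and the higher members numbered 0 without KO replicate 2 and the lower members numbered 20 and 27 without KO replicates 1 and 2. Among cytosolic ribosomal proteins 2 of 49 were higher and 3 lower (median -0.16), with Rpl3l at 7.17 and 7.3 in KO and 10.75 and 10.34 in WT and Rpl7l1 at 7.44 and 7.73 in KO and 8.63 and 8.41 in WT, and the higher members numbered 1 and 0 without KO replicates 1 and 2 and 0 and 1 without WT replicates 1 and 2 and the lower members numbered 6 without WT replicate 2.

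Genes that bring fatty acids to oxidation were among the falls. Of 44 members 18 were lower and 0 higher (median -0.46). Acot13, a mitochondrial thioesterase, read 10.57 and 10.24 in KO and 12.22 and 11.96 in WT (3.22-fold lower, adjusted p = 0.000254) and Etfb, which takes up electrons from the oxidation, 10.10 and 10.33 in KO and 11.88 and 11.89 in WT (3.19-fold lower). The WT hearts were equal for Etfb and further apart for Acot13. Ehhadh, of peroxisomal oxidation, fell by 1.27 ± 0.18 and Cpt2, which completes the import of fatty acids, by 1.48 ± 0.17. Another probe set of Cpt2 gave -0.39. As arrays were left out in turn, the higher members numbered 1 without KO replicate 1 and 4 without WT replicate 2 and the lower members numbered 10 without KO replicate 1.

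Genes of stored fat were among the falls too, 9 of 28 lower and 1 higher (median -0.28). Plin5, which binds lipid droplets to mitochondria, read 8.08 and 8.23 in KO and 9.93 and 10.07 in WT (3.59-fold lower, adjusted p = 5.29e-05), next to Ces1d above. Fitm1 and Fitm2, which help droplets to form, fell by 1.73 ± 0.12 and 1.38 ± 0.18, and G0s2, an inhibitor of the main triglyceride lipase, by 1.31 ± 0.17. Thus genes of droplet formation and of droplet breakdown were both among the falls. By array left out, the higher members numbered 0 without KO replicate 1 or 2 and 0 without WT replicate 2. Of 11 adipocyte markers none was called (median 0.07), and their summed intensity read 10970 and 9634 in KO and 6873 and 12400 in WT. Here the lower members numbered 1 without WT replicate 1.

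Branched-chain amino acid and ketone oxidation had 12 of 20 members lower and 1 higher (median -0.84), and 9 of the falls kept their call with any 1 array left out. Ppm1k, the phosphatase that activates the branched-chain dehydrogenase, read 7.27 and 7.48 in KO and 8.78 and 9.07 in WT (2.92-fold lower) and Bckdhb, a subunit of that enzyme, fell by 1.54 ± 0.18. Aldh6a1 and Mccc2, of valine and leucine breakdown, fell by 1.29 ± 0.16 and 1.12 ± 0.16. Auh, also of leucine breakdown, read 7.73 and 7.87 in KO and 9.53 and 9.31 in WT, but its 5 other probe sets gave -0.13 to 0.55. The mean of its probe sets gave -0.16, and without the probe sets of shared sequence it gave 0.32, neither of them called, so the fall is that of 1 probe set. With 1 array left out, the higher members numbered 0 without KO replicate 1 or 2.

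Of 27 genes of glucose uptake and glycolysis 2 were higher and 5 lower (median 0.1). That is 7.41% and 18.5%, against 5.19% and 6.89% of all genes. Pfkp, the platelet form of phosphofructokinase, read 9.33 and 9.48 in KO and 7.66 and 8.2 in WT (2.79-fold), and Eno3 and Pgam2, the muscle forms of enolase and phosphoglycerate mutase, fell by 1.05 ± 0.12 and 0.73 ± 0.11. Hk1, the hexokinase that prevails in the fetal heart, rose by 1.24 ± 0.23 and was not called without KO replicate 2 (1.08). In fits without 1 of the arrays, the higher members numbered 1 without KO replicate 2 and 4 without WT replicate 2 and the lower members numbered 3 without KO replicate 1 or 2. Around pyruvate and the tricarboxylic acid cycle 2 of 29 were higher and 4 lower (6.9% and 13.8%, median -0.19). Fumarase, Fh1, read 10.66 and 10.91 in KO and 12.26 and 11.94 in WT, the malic enzyme Me2 6.85 and 6.9 in KO and 5.73 and 5.93 in WT and Pdk3, a kinase that inhibits pyruvate dehydrogenase, rose by 0.82 ± 0.13, and the lower members numbered 2 without KO replicate 1.

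In the energy buffer, 3 of 18 genes were higher and 2 lower (median -0.07). Prkab2 and Prkag2, subunits of the energy sensor AMP kinase, read 8.03 and 8.22 in KO and 6.51 and 7.01 in WT and 7.94 and 8.07 in KO and 6.84 and 6.99 in WT, and Slc6a8, which imports creatine, rose by 0.99 ± 0.15. Ckm, the muscle creatine kinase whose regulatory sequence gives the driver its name, fell by 0.99 ± 0.15 (1.98-fold), and the lower members numbered 1 without KO replicate 1. Another probe set of Ckm gave -0.2, and the others of Prkag2 gave -0.09 to 1.05. For NAD, 1 of 30 genes was higher and 6 were lower (median -0.04). Against the rise of Nmrk2, Nampt, which starts NAD synthesis from nicotinamide, read 8.63 and 8.72 in KO and 9.94 and 9.65 in WT (2.17-fold lower), and Nadk2, the mitochondrial NAD kinase, and Sirt3, the mitochondrial deacetylase, fell by 1.08 ± 0.12 and 0.87 ± 0.13. The other probe sets of Nadk2 gave -0.44 to 0.07. When single arrays were left out, the higher members numbered 2 without WT replicate 2 and the lower members numbered 3 without KO replicate 1. Of 44 mitochondrial carriers 1 was higher and 7 were lower (median -0.07). Slc25a26, which imports the methyl donor S-adenosylmethionine, read 5.97 and 5.91 in KO and 7.35 and 7.37 in WT and Slc25a20, which exchanges acylcarnitines, fell by 0.79 ± 0.12, and the higher members numbered 0 without KO replicate 1 or 2 and 0 and 2 without WT replicates 1 and 2 and the lower members numbered 3 without KO replicate 1.

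Regulators of mitochondrial biogenesis had 3 of 21 members lower and 0 higher (median -0.29). Tfb1m, which methylates mitochondrial ribosomal RNA, read 5.71 and 5.62 in KO and 7.09 and 6.81 in WT, and the higher members numbered 1 without WT replicate 2 and the lower members numbered 1 without KO replicate 1 and 7 without WT replicate 1. Cholesterol synthesis genes were near the level of all genes, 1 of 20 higher and 1 lower (median -0.04), and the higher members numbered 0 without KO replicate 2 and 2 without WT replicate 2 and the lower members numbered 0 and 2 without KO replicates 1 and 2 and 3 without WT replicate 2.

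Iron genes went both ways, and heme genes fell where they changed. For the uptake, storage and export of iron 5 of 26 genes were higher and 3 lower (median 0.05). Lcn2 read 9.34 and 9.22 in KO and 6.81 and 6.59 in WT and Hmox1, which breaks down heme, 9.14 and 8.34 in KO and 5.97 and 6.41 in WT. The transferrin receptor Tfrc read 10.07 and 10.30 in KO and 8.67 and 9.13 in WT, a rise of 1.29 ± 0.17, and ceruloplasmin, Cp, rose by 1.07 ± 0.18. The exporter ferroportin, Slc40a1, fell by 1.04 ± 0.15. Hemojuvelin, Hjv, which tunes hepcidin and is also made in muscle, fell by 1.6 ± 0.13.

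Of 13 heme synthesis genes 6 were lower and 0 higher (median -0.69), and all 6 kept their call with any 1 array left out. Uros read 7.55 and 7.59 in KO and 8.94 and 8.84 in WT and Urod 8.99 and 8.94 in KO and 10.24 and 9.86 in WT, both enzymes that build the porphyrin ring. Tmem14c and Slc25a38, which carry intermediates across the mitochondrial membrane, fell by 1.04 ± 0.14 and 0.69 ± 0.12. In the assembly of iron-sulfur clusters 6 of 22 genes were lower and 0 higher (median -0.38). Ciao1, of the cytosolic part of the pathway, fell by 0.76 ± 0.12 and was the 1 fall that kept its call throughout, and the higher members numbered 1 without WT replicate 2 and the lower members numbered 2 without KO replicate 1.

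Genes of glutathione and of the antioxidant factor NRF2 moved in both directions, 6 of 37 higher and 10 lower (median 0.02). Glutathione transferases were among the falls, Gstk1 as given above, Mgst3 at 10.69 and 10.04 in KO and 12.72 and 11.91 in WT, Gsta3 by 1.76 ± 0.3 and Gstm7 by 1.14 ± 0.18. Another probe set of Gstm7 gave 0.09. Srxn1, which repairs peroxiredoxins, rose by 1.21 ± 0.18. Here the higher members numbered 3 and 2 without KO replicates 1 and 2 and the lower members numbered 6 without KO replicate 2. Of 22 antioxidant enzymes 2 were higher and 4 lower (median -0.2), with Msrb2, a mitochondrial repair enzyme of oxidised methionine, at 6.81 and 7.31 in KO and 8.6 and 8.79 in WT. As arrays were left out in turn, the higher members numbered 1 without KO replicate 1 or 2 and 1 without WT replicate 1 and the lower members numbered 2 without KO replicate 1 or 2 and 2 and 8 without WT replicates 1 and 2. Of 10 NADPH oxidase subunits 2 were higher, with Nox4 at 6.9 and 7.07 in KO and 4.31 and 4.26 in WT. By array left out, the higher members numbered 1 without KO replicate 1 or 2 and 1 without WT replicate 1 or 2. Ncf1, of the phagocyte oxidase, rose by 0.51 ± 0.13 and was not called in any of the 4 fits without 1 array (0.47 to 0.55). Of the 4 metallothioneins 1 was lower, Mt3 (-0.64 ± 0.15), and it was not called without KO replicate 1 (-0.66), without KO replicate 2 (-0.63) and without WT replicate 1 (-0.42). Here the higher members numbered 1 without WT replicate 1 and the lower members numbered 0 without KO replicate 1 or 2 and 0 and 2 without WT replicates 1 and 2.

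Some muscle-specific parts of the protein-degradation machinery fell. All 5 called of 18 Asb adaptors were lower (median -0.27), and each kept its call with any 1 array left out. Asb5 read 5.78 and 5.72 in KO and 8.43 and 8.47 in WT and Asb15 5.63 and 5.88 in KO and 7.81 and 8.95 in WT, and Asb14, Asb11 and Asb12 fell by 2.34 ± 0.22, 1.51 ± 0.14 and 0.93 ± 0.15. Of 13 ubiquitin ligases of muscle atrophy and related genes 5 were lower and 0 higher (median -0.35). Ube2b, a ubiquitin-conjugating enzyme, read 10.12 and 10.23 in KO and 11.42 and 11.28 in WT and Fbxo31 fell by 0.95 ± 0.16. Fbxo32, the ligase atrogin-1, read 8.13 and 7.48 in KO and 8.92 and 9.03 in WT and was not called without KO replicate 2 (-0.84). With 1 array left out, the higher members numbered 2 without WT replicate 2 and the lower members numbered 3 without KO replicate 1 or 2.

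Of 49 proteasome subunits and related proteins 3 were higher and 8 lower (median -0.22). Psme1, a part of the interferon-induced activator, read 9.44 and 9.65 in KO and 10.70 and 10.53 in WT and Psmd8, of the regulatory particle, 10.69 and 10.92 in KO and 9.99 and 9.57 in WT. The counts changed with the array left out, as the higher members numbered 1 without KO replicate 1 or 2 and the lower members numbered 2 without KO replicate 1 or 2 and 5 and 15 without WT replicates 1 and 2. Lysosome and autophagy genes split, 8 of 42 higher and 6 lower (median 0.13). Ctsl, a lysosomal protease, read 12.05 and 12.16 in KO and 11.01 and 10.86 in WT, and the autophagy receptor Sqstm1 rose by 1.1 ± 0.13 and the protease Ctsz by 1.06 ± 0.19. Bnip3, a mitophagy receptor, read 10.18 and 9.47 in KO and 11.24 and 10.98 in WT. Here the lower members numbered 3 without KO replicate 1 or 2.

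Macrophage markers were among the rises. Of 31 macrophage and myeloid markers 11 were higher and 0 lower (median 0.47), and their summed intensity read 20460 and 16360 in KO and 12200 and 10950 in WT. Cd68, a lysosomal protein of macrophages, read 8.34 and 8.47 in KO and 6.46 and 6.76 in WT (3.47-fold, adjusted p = 0.000452), beside Lgals3 above. Mpeg1, a pore-forming protein, Csf1r, the receptor of the macrophage growth factor, and Mrc1, the mannose receptor, rose by 1.33 ± 0.15, 1.11 ± 0.18 and 1.06 ± 0.15. KO replicate 1 was higher than KO replicate 2 for the last 3. In fits without 1 of the arrays, the higher members numbered 7 without KO replicate 1.

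Other immune genes were mixed. Of 39 chemokines, interleukins and receptors 7 were higher and 1 lower (median 0.24). Il15, a cytokine that muscle also makes, read 6.33 and 6.53 in KO and 9.1 and 8.15 in WT (4.58-fold lower), and the chemokine receptor Ccr1 read 6.87 and 5.83 in KO and 4.86 and 5.03 in WT. Tnfrsf12a, the receptor of the cytokine TWEAK, rose by 1.38 ± 0.16. When single arrays were left out, the higher members numbered 4 and 13 without KO replicates 1 and 2 and the lower members numbered 3 without KO replicate 1. Of 16 complement genes 3 were higher and 1 lower (median 0.29). Cd59a, which shields cells from the lytic complex, read 8.16 and 8.59 in KO and 9.74 and 9.54 in WT, and the inhibitor Serping1 and the receptor C3ar1 rose by 1.13 ± 0.18 and 0.94 ± 0.17, and the higher members numbered 5 without KO replicate 2.

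Interferon-induced and antigen presentation genes were lower, 13 of 41 and 0 higher (median -0.37). Gbp6 and Rsad2 kept their call with any 1 array left out, Rsad2 reading 7.07 and 7.34 in KO and 8.31 and 8.53 in WT. The GTPase Iigp1 read 7.15 and 7.65 in KO and 9.66 and 8.19 in WT and the class II gene H2-Ab1 7.61 and 7.7 in KO and 9.08 and 8.35 in WT, so WT replicate 1 was highest for both. Iigp1 was not called without KO replicate 1 (-1.28), without KO replicate 2 (-1.78) and without WT replicate 1 (-0.79), nor H2-Ab1 without KO replicate 1 (-1.02). The size of the group depended on the arrays, as the lower members numbered 3 and 6 without KO replicates 1 and 2 and 8 and 20 without WT replicates 1 and 2. Of 19 lymphocyte markers 3 were lower (median -0.05), and the higher members numbered 1 without WT replicate 2 and the lower members numbered 0 without KO replicate 2. They were the B-cell genes Jchain (-1.53 ± 0.38), Ms4a1 (-1.16 ± 0.28) and Cd79b (-0.87 ± 0.22). Jchain was not called without KO replicate 2 (-1.12) and without WT replicate 2 (-1.06), Ms4a1 not without KO replicate 1 (-1.21) and without KO replicate 2 (-1.12) and Cd79b not without KO replicate 2 (-0.61) and without WT replicate 2 (-0.69).

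Annexins, calcium-dependent membrane-binding proteins, had 6 of 11 members higher and 1 lower (median 0.55). Anxa5 read 10.90 and 10.91 in KO and 9.52 and 10.04 in WT and Anxa3 rose by 1.01 ± 0.16. Anxa2 read 11.39 and 11.07 in KO and 9.98 and 10.34 in WT, but without the probe sets of shared sequence it gave -0.1 and was not called. As arrays were left out in turn, the higher members numbered 3 without KO replicate 1 and the lower members numbered 0 without KO replicate 2 and 0 without WT replicate 1. Among 13 S100 proteins S100a6 alone was higher (1.15 ± 0.18), and the higher members numbered 4 without KO replicate 2 and 3 without WT replicate 1 and the lower members numbered 2 without KO replicate 1 and 2 without WT replicate 2. Of 39 serpins 4 were higher and 1 lower (median -0.04), with Serpina3n far ahead of Serping1 at 11.52 and 11.57 in KO and 10.18 and 10.65 in WT, and the higher members numbered 2 without KO replicate 1 or 2 and the lower members numbered 0 without KO replicate 1 or 2 and 2 without WT replicate 2.

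Of 25 endothelial markers 2 were higher and 1 lower (median -0.1), with 12400 and 13100 in KO and 11070 and 15610 in WT as summed intensity, and the higher members numbered 0 and 1 without KO replicates 1 and 2 and 0 without WT replicate 1 and the lower members numbered 0 and 2 without KO replicates 1 and 2 and 6 without WT replicate 1. Of 15 smooth muscle and pericyte markers 1 was higher and 2 were lower (median 0.05), the largest fall being that of Abcc9, which heart muscle also expresses, and the higher members numbered 0 without KO replicate 1 and 2 without WT replicate 2 and the lower members numbered 1 without KO replicate 1. Of 20 cardiomyocyte markers 2 were higher and 4 lower (median -0.23), and the higher members numbered 1 and 0 without KO replicates 1 and 2 and 1 and 5 without WT replicates 1 and 2 and the lower members numbered 1 without KO replicate 1. Of 14 atrial markers 1 was higher and 4 were lower (median -0.44), and the higher members numbered 0 without KO replicate 1 or 2 and 0 and 3 without WT replicates 1 and 2 and the lower members numbered 1 and 2 without KO replicates 1 and 2. Krt18, a keratin of the mesothelial list, read 7.47 and 7.33 in KO and 5.67 and 5.83 in WT (3.13-fold, adjusted p = 0.0001) and was the only one of 12 called, and the higher members numbered 2 without WT replicate 2. Slc4a1, the anion exchanger of red cells, read 5.19 and 5.34 in KO and 6.49 and 6.34 in WT and was the only one of 7 erythroid markers called, and the lower members numbered 2 without KO replicate 1 and 4 without WT replicate 2. Of 15 skeletal muscle markers 2 were higher and 2 lower (median -0.17), among them Acta1 and Ckm given above, and the higher members numbered 1 without KO replicate 1 and 1 without WT replicate 2 and the lower members numbered 1 without KO replicate 1 or 2 and 4 without WT replicate 2.

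Signal-dependent regulators moved in both directions. Of 26 immediate early genes 6 were higher and 5 lower (median 0.29). Nr4a1, an orphan nuclear receptor, read 9.55 and 9.96 in KO and 8.31 and 8.01 in WT (3.02-fold) and Atf3 7.43 and 8.75 in KO and 6.41 and 6.27 in WT, highest in KO replicate 2. Myc and Ccn1 rose by 1.33 ± 0.14 and 1.17 ± 0.14, and Klf2, a factor of flow-exposed endothelium, fell by 1.24 ± 0.19. By array left out, the lower members numbered 3 and 2 without KO replicates 1 and 2. Of 22 p53 target genes 6 were higher and 4 lower (median 0.16). Plk2 rose by 1.66 ± 0.15, Phlda3 by 1.37 ± 0.17 and Perp by 0.86 ± 0.12, and Ccng1 fell by 1.09 ± 0.13, and the higher members numbered 3 without KO replicate 2 and the lower members numbered 1 and 2 without KO replicates 1 and 2 and 2 without WT replicate 1.

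Hypoxia genes had 1 of 20 members higher and 8 lower (median -0.27). Hif1a, the oxygen-regulated factor itself, read 9.84 and 9.95 in KO and 7.55 and 8.18 in WT in message (4.09-fold, adjusted p = 0.000311), with 0.17 to 2.2 on its other probe sets. Egln3 and Egln1, the hydroxylases that mark the factor for destruction, read 7.01 and 6.76 in KO and 8.35 and 8.77 in WT and 9.31 and 9.64 in KO and 10.38 and 10.90 in WT. The factor's message was thus higher and those of its hydroxylases lower in both KO hearts, and the higher members numbered 3 without WT replicate 2 and the lower members numbered 5 without KO replicate 2. Of 18 clock genes 2 were higher and 2 lower (median 0.08), or 11.1% each way against 5.19% and 6.89% of all genes. Hlf, an output factor of the clock, fell by 1.06 ± 0.19 and was not called without KO replicate 1 (-0.94), and the higher members numbered 0 without KO replicate 1 or 2 and the lower members numbered 0 without KO replicate 1. Of 38 cell cycle genes 2 were higher and 1 lower (median 0.04), and the higher members numbered 1 and 0 without KO replicates 1 and 2 and 4 without WT replicate 1 and the lower members numbered 0 without KO replicate 1 or 2 and 0 and 3 without WT replicates 1 and 2.

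The 4-week arrays gave the same comparison at an earlier age. The KO effect at 10 weeks differed from that at 4 weeks for 379 of all genes, or 2.08% (limma, adjusted p under 0.05), of which 375 were also called at 10 weeks. In 160 of the 379 the effect was more positive at 10 weeks and in 219 more negative. Of the 40 leading genes 34 passed this test, but they were chosen for the size of their 10-week difference, which is part of what it tests, so the choice favours passing and smaller values at 4 weeks. The count of 379 rested on single arrays: it was 106 without KO replicate 1 and 206 without KO replicate 2 at 10 weeks, 1600 without WT replicate 2 at 10 weeks, 116 and 53 without KO replicates 1 and 2 at 4 weeks, and 50 and 40 without WT replicates 1 and 2 at 4 weeks. Of the leading genes, 20 passed in all 8 fits that left out 1 array, among them Serpina3n, Postn, Myh7, Nox4, Rpl3l, Ces1d and Rgs2. Serpina3n went from 0.13 at 4 weeks to 4.06 (adjusted p of the difference = 0.00335), and Myh7 from 0.39 to 3.06 (0.000814). Nox4 went from -0.3 to 2.7 (0.000814), and on the falling side Rpl3l from -0.24 to -3.31 (0.000814) and Ces1d from -0.34 to -3.08 (0.000814).

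The 6 that did not pass were Nmrk2 (3.59 at 4 weeks and 5.57 at 10, adjusted p of the difference = 0.0723), Asns (2.95 and 3.91, 0.0904), Lgals3 (2.03 and 3.3, 0.121), Aldh18a1 (1.34 and 3.15, 0.105), Ddit3 (1.01 and 2.59, 0.0778) and Asb15 (-0.8 and -2.62, 0.0674). Nppb, by contrast, had the larger value at 4 weeks, 1.97 against 1.65 (0.689). By list, the medians at 4 and 10 weeks were -0.09 and -0.79 for complex I subunits, 0.13 and 0.74 for matricellular proteins, and 0.17 and 0.78 for stress response genes. The series' design describes each age as 1 set of littermates, so age and litter cannot be told apart.

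**Figure D4:**
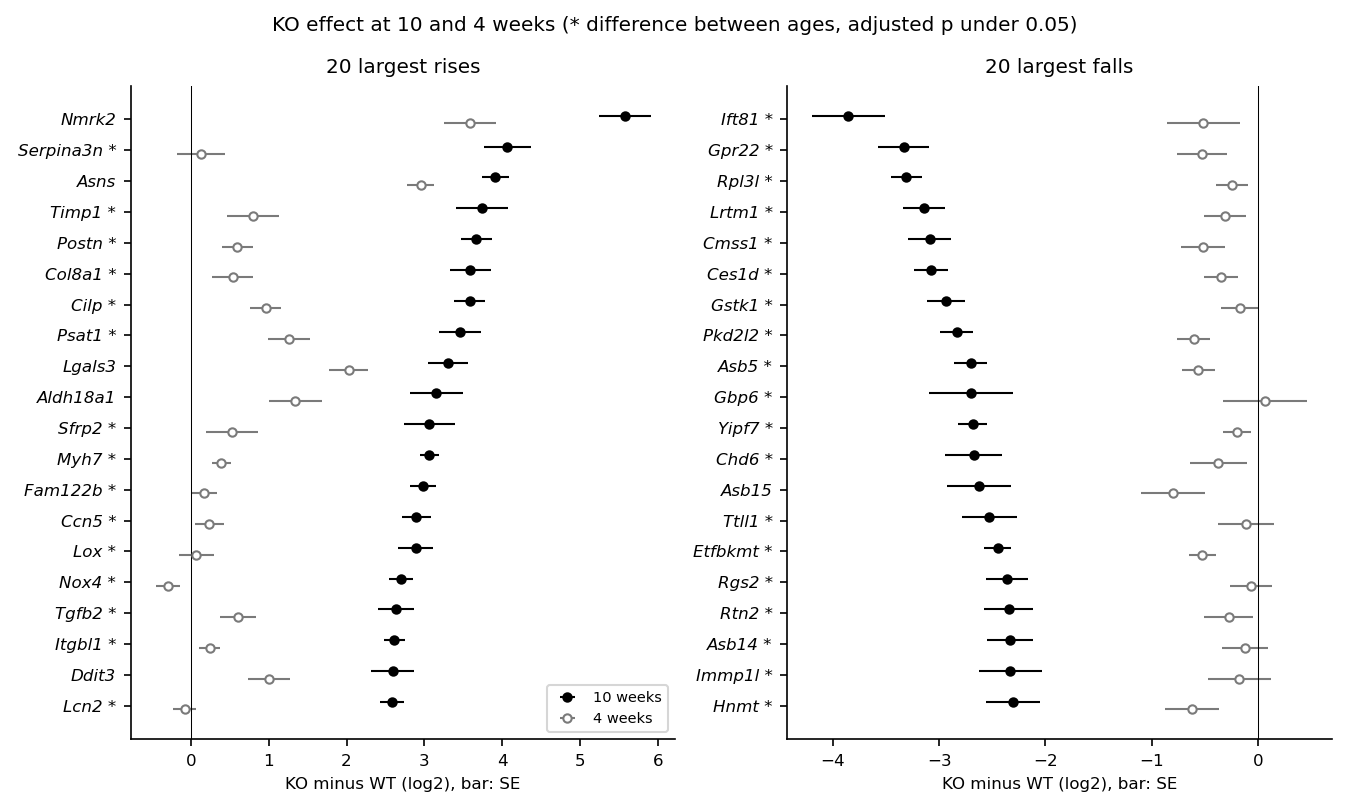
KO minus WT difference (log2) with its SE at 10 weeks (filled) and at 4 weeks (open) for the 20 largest rises and the 20 largest falls at 10 weeks; a star marks genes whose difference changed between the ages. Nmrk2, at 5.57 and 3.59, and Asns, at 3.91 and 2.95, were already apart at 4 weeks, while Lox, at 2.89 and 0.07, and Lcn2, at 2.58 and -0.08, were not.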

How the data were processed

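Total RNA of 8 hearts, 2 per genotype and age, had been measured on Affymetrix mouse 430 2.0 arrays. Deposited were linear intensities; GCOS 1.3 and RMA are the tools that the submitters' processing notes list for them, so those steps came before deposit. Array medians lay between 34.3 and 37.33. The number of arrays limits the precision: the median SE of a difference was 0.145 in log2. The p-values rest on the spread between these mice, pooled over both ages and genotypes.

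Intensities were turned into log2 values. Of 45101 probe sets, 64 controls were left out; 34945 named 1 gene, 932 several and 9160 none, by GEO's platform annotation, with 34741 symbols updated by Entrez ID. Each of 18193 genes was represented by its brightest probe set on average. Of the genes called at 10 weeks 1256 had another probe set. For 961 of them all others had the same sign, and for 295 at least 1 had the opposite sign. Other probe sets are quoted for some of the named genes only. limma 3.58.1 in R 4.3.3 fitted 1 mean per group over all 8 arrays (4 residual degrees of freedom, 9.33 after moderation), with two-sided tests of KO minus WT at 10 weeks and of that effect minus the effect at 4 weeks, and Benjamini-Hochberg adjustment over all genes. The fit was tested on simulated data.

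Members and the 70 gene lists were chosen with earlier results of these data known. Of 1889 list entries 1759 were measured; 122 listed genes were not analysed here. Leading genes are the 20 largest rises and 20 largest falls among genes called with both KO arrays beyond both WT arrays and in each fit without 1 of the 10-week arrays, without clone-like symbols; per list, up to 6 called members with the largest difference could be named. Alternatives were other choices of probe set, filters on dim genes, further normalization, trend and robust moderation, array weights, the 10-week arrays alone, a block for the replicate number, and fits without each array. The result on 1 gene is not reported here. Background signal compresses differences of dim probe sets, so their changes are understated.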

Additional observations from a re-analysis of the deposited data

Results flagged for a closer look

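The KO effect differed between the ages for 34 of the 40 leading genes (limma, adjusted p under 0.05 for the 10-week effect minus the 4-week effect). These genes were chosen for the size of their 10-week difference, which enters this test, so the choice favours passing and the count is a description. On the rising side this difference was 3.93 in log2 for Serpina3n, 3.07 for Postn, 3.05 for Col8a1, 2.996 for Nox4, 2.94 for Timp1, 2.82 for Lox, 2.81 for Fam122b, 2.67 for Myh7, 2.66 for Ccn5, 2.66 for Lcn2, 2.62 for Cilp, 2.53 for Sfrp2, 2.37 for Itgbl1, 2.19 for Psat1 and 2.03 for Tgfb2. Matrix and matrix-associated genes were the most numerous among them. On the falling side it was -3.34 for Ift81, -3.07 for Rpl3l, -2.83 for Lrtm1, -2.81 for Gpr22, -2.77 for Gbp6, -2.76 for Gstk1, -2.73 for Ces1d, -2.57 for Cmss1, -2.49 for Yipf7, -2.42 for Ttll1, -2.30 for Chd6, -2.30 for Rgs2, -2.23 for Pkd2l2, -2.22 for Asb14, -2.16 for Immp1l, -2.14 for Asb5, -2.07 for Rtn2, -1.92 for Etfbkmt and -1.69 for Hnmt. Of the 34, 20 passed in all 8 fits without 1 array, and the other 14 did not.

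Probe sets that name no gene were left out of every comparison. Fitted on their own, with the adjustment over these 9160 alone, 56 were higher and 81 lower in KO at 10 weeks. These counts are therefore not on the same footing as those of the named genes.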

How the results depend on the processing

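Groups of 2 arrays make the counts depend on single arrays. Leaving out 1 of the 8 arrays gave 525 to 1674 genes higher and 595 to 1570 lower at 10 weeks, 1154 to 3244 in all, against 945, 1254 and 2199. The difference between the ages gave 40 to 1600 genes, against 379. The 10-week arrays alone gave 400 higher, 559 lower and 959 in all. All probe sets singly gave 1590 higher and 3440 in all, counted as probe sets. Quantile normalization applied again gave 1235 higher and 1295 lower; array centring gave 786 and 1175, and 211 genes for the difference between the ages. Over these scalings 40.1% to 48.8% of the calls were higher, against 43.0%. The cause of these changes was not tested. Fits with fewer arrays have fewer degrees of freedom, and the 10-week arrays alone also have their own estimate of the spread.

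With the replicate number as a block (replicate block), 1287 genes were higher and 1554 lower, and 751 differed between the ages; all 330 named genes called at 10 weeks kept their call. Deviations of equal numbers correlated at 0.23 at 10 weeks and 0.302 at 4 weeks, which does not establish pairs.

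Without probe sets of shared sequence, Ttll1 gave 0.033, Pfkl 0.077, Auh 0.32 and Anxa2 -0.10, each opposite in sign to its value over all probe sets and none called; they then rest on another probe set. Ucp1, not called among the adipocyte markers, gave -1.35 without WT replicate 1 and 0.085 without WT replicate 2. Of the 330 named genes, 262 kept their call without probe sets of shared sequence, 297 where probe sets of a gene were averaged and 224 with the 10-week arrays alone.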
